A study of Mus musculus with 4 samples.

Results

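Carbonic anhydrases are zinc enzymes that interconvert carbon dioxide and water with bicarbonate and a proton. Cells use them to buffer the cytosol, to move acid and bicarbonate across membranes together with transporters, and to supply bicarbonate to carboxylating enzymes in mitochondria. The family members differ mainly in where they sit: free in the cytosol, in mitochondria, on the cell surface or in secretions such as saliva. Some relatives, among them Car8, have the fold but not the activity.

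The 10 mouse genes examined here are Car2, Car3, Car4, Car5b, Car6, Car8, Car9, Car12, Car13 and Car14. A gene was taken through array rows that the platform annotation gives to that gene symbol and no other, and a gene with several such rows was represented by the brightest of them on average over the 4 arrays. By this rule 9 of the 10 genes had a value, out of 22180 genes on the array. The row that names Car14 also names Aph1a, so Car14 has no value of its own. Rows were thus chosen by their mean over all arrays, and the family itself was selected on results of this comparison, since the rises of Car6 and Car12 in this comparison were already known when it was proposed. The values below describe these genes, and the p-values are those of a fit over all genes and are no independent support for the choice.

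Gene expression was measured in primary keratinocytes, the epithelial cells of the epidermis, grown from C57BL/6J mice aged 1 week. Glut1-deficient cells came from Glut1 fl/fl mice with K14 Cre, a recombinase driven by the keratin 14 promoter of basal keratinocytes, and WT cells came from Glut1 fl/fl mice, so both genotypes carry the floxed alleles and the Cre differs between them. The study used 4 mice per genotype, reseeded the cells at equal number on day 3, harvested them 1 day later and combined 2 plates for each array, which gave 2 Glut1-deficient and 2 WT arrays. Lysates held 1000000 Glut1-deficient or 1500000 WT cells. Glut1 imports glucose and is encoded by Slc2a1, and the comparison addresses how keratinocyte gene expression differs without it.

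The values are log2 intensities per gene, made comparable between arrays by quantile normalization, so that every change is relative to the other genes. Array medians lay between 4.07 and 4.11, and with 2 arrays per genotype their number sets the precision. The brightest Slc2a1 row read 11.01 and 11.01 on the Glut1-deficient arrays and 11.13 and 11.05 on the WT arrays, and did not pass the test (limma adjusted p = 0.675). A second, dimmer Slc2a1 row read 4.80 and 4.44 on the Glut1-deficient arrays and 5.18 and 5.09 on the WT arrays, 0.52 lower on the log2 scale (limma unadjusted p = 0.0256, and 0.247 adjusted over all rows). The floxed exons are not named in the labels, so neither row checks the genotype. Of the keratinocyte markers, Krt14 averaged 12.18 ± 0.043 on the Glut1-deficient arrays and 12.55 ± 0.012 on the WT arrays (SD, n = 2 each), while Krt5 had no row of its own. Throughout, a gene rose or fell when its Benjamini-Hochberg adjusted p over all 22180 genes was under 0.05 in limma. In all 630 genes passed, which is 2.84% (1.79% rose and 1.05% fell). Of all genes, 22.2% had an unadjusted limma p under 0.05. Counts for the gene lists and marker lists below are to be read beside these shares. In cultures like these, a change in RNA per cell and a change in the share of a cell type cannot be told apart.

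Car6 and Car12 were the members that rose, and the start-site regions of these genes and of Car9 are shown because Car9 and Car12 are known as targets of the hypoxia-inducible factors (HIF) in human tumour cells. The HIF core motif was searched as ACGTG and GCGTG on both strands in the 250 bases before the start that RefSeq gives each gene in build GRCm38.p6, and matches are in capitals.
Car6, chr4:150201136-150201385, minus strand: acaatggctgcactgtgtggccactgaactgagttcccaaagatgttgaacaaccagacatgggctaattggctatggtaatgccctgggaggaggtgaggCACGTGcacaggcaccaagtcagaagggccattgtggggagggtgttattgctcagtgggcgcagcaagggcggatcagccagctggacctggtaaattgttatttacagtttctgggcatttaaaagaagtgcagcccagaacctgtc
Car12, chr9:66713436-66713685, plus strand: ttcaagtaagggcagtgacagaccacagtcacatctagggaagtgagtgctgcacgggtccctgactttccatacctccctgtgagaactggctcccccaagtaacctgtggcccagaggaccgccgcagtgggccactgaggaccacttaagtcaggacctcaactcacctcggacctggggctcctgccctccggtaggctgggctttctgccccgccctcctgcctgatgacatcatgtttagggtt
Car9, chr4:43506776-43507025, plus strand: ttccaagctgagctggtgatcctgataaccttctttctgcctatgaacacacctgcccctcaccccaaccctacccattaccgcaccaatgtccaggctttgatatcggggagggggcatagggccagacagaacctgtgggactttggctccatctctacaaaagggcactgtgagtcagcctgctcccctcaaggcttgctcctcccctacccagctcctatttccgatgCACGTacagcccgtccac

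The Car9 window holds 1 match, on the minus strand, 18 to 14 bases before the start. The Car6 window holds the palindrome CACGTG, which gives 2 overlapping matches, 1 on each strand, between 149 and 144 bases before the start. The Car12 window holds none, and any other start of Car12 is not covered by it. Windows were found for 6 of the 10 genes, and 4 of these 6 held a match, with Car14 (1 match) and Car5b (5 matches) beside Car6 and Car9. Over all 32851 windows of the same length in the table, 38.6% held at least 1 match. The composite C/EBP-ATF motif TGATGNAA, which factors such as CHOP and ATF4 can bind, was in 0 of the 6 windows and in 3.45% of all windows. The AP-1 motif TGANTCA was in the Car9 window once, read on both strands, and in 6.75% of all windows. These matches describe letters in a window and are not binding sites.

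Car6, the secreted member of the family, found in saliva and milk, showed the largest difference of the 9 genes. It read 7.85 and 7.31 on the Glut1-deficient arrays, against 3.98 and 4.39 on the WT arrays. Both Glut1-deficient arrays lay above both WT arrays by several times the gap within either pair. The gene rose 10.5-fold (log2 fold change 3.40, SE 0.228, 95% interval 2.81 to 3.98; limma adjusted p = 0.0140). In the WT cultures the row was dimmer than the median tested gene (4.76), and no detection calls were used here, so whether WT cells had measurable Car6 RNA is not known. In mouse cells a second, intracellular form of carbonic anhydrase VI has been described that is made from another start site and depends on the stress transcription factor CHOP. The single Car6 row gives 1 value per array and does not tell such forms apart.

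The membrane-bound members carry their active site outside the cell. Car12, a transmembrane enzyme, read 8.45 and 8.02 on the Glut1-deficient arrays, against 6.71 and 6.59 on the WT arrays, again without overlap. It rose 3.00-fold (log2 fold change 1.59, SE 0.165, 95% interval 1.16 to 2.01; limma adjusted p = 0.0255). Car9, the transmembrane member best known as a hypoxia marker, did not pass. Its brighter row read 5.44 and 5.23 on the Glut1-deficient arrays and 5.16 and 4.96 on the WT arrays, which is a difference of 0.27 on the log2 scale (95% interval -0.05 to 0.59; limma adjusted p = 0.283). The groups did not overlap, but the lower Glut1-deficient array was only 0.069 above the higher WT array. A second Car9 row, dimmer and not used for the gene, had 4.05 and 4.10 on the Glut1-deficient arrays and 3.83 and 4.05 on the WT arrays. The difference in that row was 0.14 (95% interval -0.19 to 0.46), so the upper bound of either row lay below the estimate for Car12. Car4, held to the membrane by a lipid anchor, read 3.49 and 3.67 on the Glut1-deficient arrays and 3.43 and 3.53 on the WT arrays, with overlapping groups (log2 fold change 0.10, 95% interval -0.17 to 0.37).

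**Figure D1:**
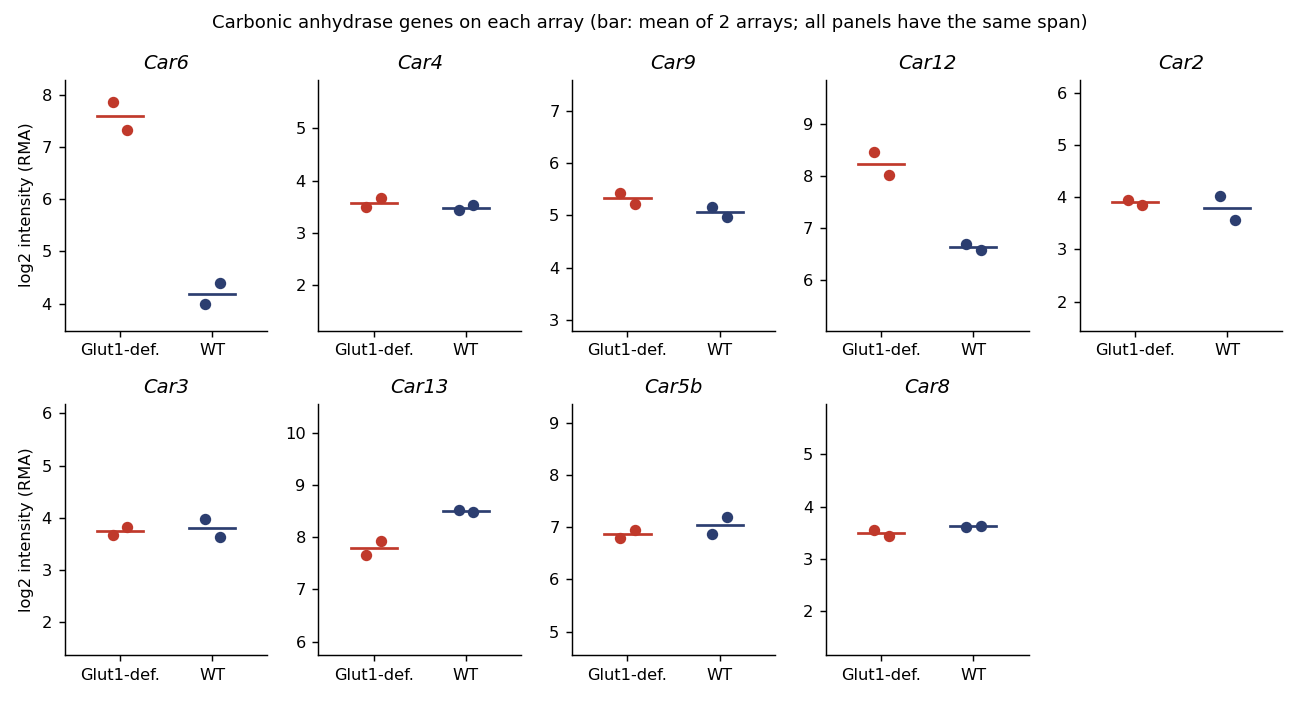
Log2 intensity (vertical axis, the same span in each panel) of the 9 carbonic anhydrase genes on the Glut1-deficient and WT arrays; points are arrays and bars are means of 2 arrays. Car6 and Car12 stand higher on both Glut1-deficient arrays, Car13 stands lower on both (7.66 and 7.93, against 8.52 and 8.47 on the WT arrays), and the other 6 genes lie close together.

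The cytosolic members gave no call. Car13, a cytosolic enzyme with a broad tissue range, came nearest, and its values pointed the other way from Car6 and Car12. It read 7.66 and 7.93 on the Glut1-deficient arrays, against 8.52 and 8.47 on the WT arrays. The groups did not overlap, and the gap between them exceeded the gap within either pair. The log2 fold change was -0.70 (95% interval -1.01 to -0.39), with an unadjusted limma p of 0.00223 and an adjusted p of 0.0582, just outside the threshold. It was past the threshold with a variance prior that depends on intensity (limma adjusted p = 0.00591) and among genes above the median level (limma adjusted p = 0.0191), settings that called 2671 and 2327 genes in all, against 630. It was not past it among all rows (limma adjusted p = 0.157) or with any 1 array left out (limma adjusted p from 0.0970 to 0.311).

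Car2, the highly active cytosolic enzyme of many tissues, read 3.95 and 3.85 on the Glut1-deficient arrays and 4.02 and 3.56 on the WT arrays. Car3, a cytosolic member of low activity that is abundant in muscle and fat, read 3.66 and 3.83 on the Glut1-deficient arrays and 3.98 and 3.63 on the WT arrays. For both genes the WT pair spread over a wider range than the Glut1-deficient pair and enclosed it. The 95% intervals of the log2 fold change were -0.32 to 0.54 for Car2 and -0.44 to 0.32 for Car3. A change in array signal of the size seen for Car12 lay outside both. Both rows were dim and may lie near background, so the intervals bound the signal and not the RNA. The second, dimmer Car3 row had a log2 fold change of 0.11 (95% interval -0.33 to 0.55).

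Car5b, a mitochondrial member, read 6.80 and 6.95 on the Glut1-deficient arrays and 6.87 and 7.20 on the WT arrays, with overlapping groups (log2 fold change -0.16, 95% interval -0.53 to 0.21). Car8, the inactive relative that binds an IP3 receptor, read 3.56 and 3.45 on the Glut1-deficient arrays and 3.62 and 3.62 on the WT arrays. Its groups did not overlap, yet the log2 fold change was only -0.12 (95% interval -0.35 to 0.12). The rows of Car2, Car3, Car4 and Car8 were all dimmer on average than the median tested gene.

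Counted together, 2 of the 9 genes rose, 0 fell and 7 did not pass in limma, beside 2.84% of all genes past the threshold. An unadjusted p under 0.05 was found for 3 of the 9, beside 22.2% of all genes, and 5 of the 9 log2 fold changes were above 0, beside 48.4% of all genes. Since the rises of Car6 and Car12 were known when the family was chosen, nothing is read from that count. The groups did not overlap for 5 of the 9 genes, with the Glut1-deficient arrays above for 3 and below for 2, and this was near the share among all genes (53.2%, of which 25.5% above and 27.7% below). The median log2 fold change of the 9 genes was 0.10, against -0.007 over all genes tested. The calls for Car6 and Car12 rest on all 4 arrays. With any 1 array left out neither passed (limma adjusted p from 0.0685 to 0.212 for Car6 and from 0.0685 to 0.233 for Car12), while the log2 fold change stayed between 3.13 and 3.66 for Car6 and between 1.37 and 1.80 for Car12. Tested among all 41345 rows, Car6 had an adjusted p of 0.0900 and Car12 one of 0.106 in limma.

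**Figure D2:**
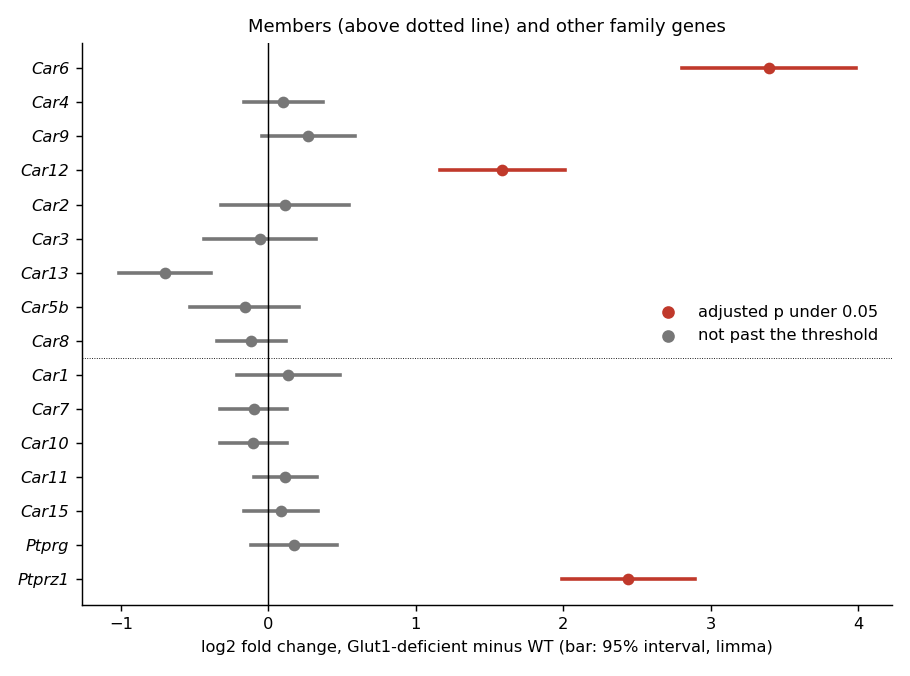
Log2 fold change, Glut1-deficient minus WT, with 95% limma intervals, for the 9 carbonic anhydrase genes (above the dotted line) and 7 other genes of the family (below it). Only Car6 (3.40), Car12 (1.59) and Ptprz1 (2.44) are drawn as past the threshold, and the interval of Car13 (-1.01 to -0.39) also lies to 1 side of 0.

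The rest of the family comprised the enzymes Car1, Car5a, Car7 and Car15, the inactive relatives Car10 and Car11, and the receptor phosphatases Ptprg and Ptprz1, whose outer part contains a carbonic anhydrase-like domain. Of 8 such genes listed, 7 had a value, 1 rose, 0 fell and 6 did not pass, beside 2.84% of all genes past the threshold. Ptprz1, known mainly from glia, read 6.72 and 6.62 on the Glut1-deficient arrays, against 3.98 and 4.46 on the WT arrays, and rose 5.44-fold (limma adjusted p = 0.0148), with WT values dimmer than the median tested gene. Ptprg read 7.49 and 7.40 on the Glut1-deficient arrays and 7.16 and 7.39 on the WT arrays, a difference of 0.17 on the log2 scale that missed the threshold. Car1, Car7, Car10, Car11 and Car15 had log2 fold changes from -0.10 (Car10) to 0.14 (Car1). In the RefSeq gene table Car13, Car1, Car3 and Car2 follow one another on chromosome 3 with no other protein-coding gene between them. Along that cluster the log2 fold changes were -0.70 for Car13, 0.14 for Car1, -0.06 for Car3 and 0.11 for Car2. Whether Car13 differs from its neighbours in this was not tested.

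Proton and bicarbonate traffic across the membrane works beside the surface carbonic anhydrases. Over all genes 2.84% passed the threshold. Of 20 bicarbonate transporter genes of the Slc4 and Slc26 families with a value, 1 rose, 0 fell and 19 did not pass (median log2 fold change 0.02). The riser was Slc4a11, a member of the Slc4 family that carries protons rather than bicarbonate. It read 9.46 and 9.42 on the Glut1-deficient arrays, against 7.82 and 8.11 on the WT arrays, a 2.78-fold rise (limma adjusted p = 0.0197). Of 7 sodium-proton exchangers with a value, Slc9a2, an exchanger of epithelial surfaces, rose 2.85-fold, and the other 6 did not pass (median -0.07). Slc9a2 read 5.04 and 4.78 on the Glut1-deficient arrays, against 3.23 and 3.57 on the WT arrays, where it was dimmer than the median tested gene. Among 6 genes of proton-coupled lactate transport 1 rose, 1 fell and 4 did not pass (median -0.006). Slc16a1 rose, at 9.72 and 9.61 on the Glut1-deficient arrays against 9.06 and 9.04 on the WT arrays, and Slc16a3 fell, at 7.67 and 7.63 on the Glut1-deficient arrays against 8.71 and 8.66 on the WT arrays. Of 9 water and gas channels, the glycerol and water channel Aqp9 rose 3.40-fold, with 6.34 and 6.04 on the Glut1-deficient arrays and 4.40 and 4.45 on the WT arrays, while 0 fell and 8 did not pass (median -0.10).

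Enzymes that use or release the substrates of carbonic anhydrase were read next. Of 9 carboxylases that consume bicarbonate, 0 passed over all genes in limma, and 3 had an unadjusted p under 0.05. The shares of all genes were 2.84% and 22.2%. The median log2 fold change of the carboxylases was 0.11. The smallest p belonged to Mccc1, a subunit of the leucine-degrading carboxylase, which was 0.49 higher on the log2 scale (limma adjusted p = 0.0731), followed by Cad, the first enzyme of pyrimidine synthesis, at 0.29. Of 15 genes of enzymes that release carbon dioxide, the mitochondrial isocitrate dehydrogenase Idh2 rose 1.75-fold, 0 fell and 14 did not pass (median 0.01). Among these 15 genes 5 had an unadjusted limma p under 0.05, beside 22.2% of all genes. Of 9 receptors, channels and a cyclase that sense acid or bicarbonate, 0 passed in limma (0 at unadjusted p under 0.05), with Gpr132 at -0.22 and Asic2 at -0.17 on the log2 fold change scale (median -0.05).

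Zinc is the metal at the active site, and genes of zinc handling went both ways. Of 27 with a value, 3 rose, 1 fell and 23 did not pass (median -0.004), beside 2.84% of all genes past the threshold. Slc30a2, which loads zinc into vesicles, read 7.12 and 6.90 on the Glut1-deficient arrays, against 5.91 and 6.07 on the WT arrays, a 2.03-fold rise (limma adjusted p = 0.0318). Slc30a4, a related vesicle transporter, rose 1.79-fold, and Slc39a8, a zinc and manganese importer, rose 1.59-fold. Slc39a4, the zinc importer whose human counterpart is mutated in acrodermatitis enteropathica, read 4.75 and 4.90 on the Glut1-deficient arrays, against 6.02 and 5.68 on the WT arrays, and fell by 1.02 on the log2 scale (limma adjusted p = 0.0416). The IP3 receptor gene Itpr2 rose 1.76-fold and Itpr3 did not pass (log2 fold change -0.14). Itpr1, the receptor that Car8 is known to bind, had no value.

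**Figure D3:**
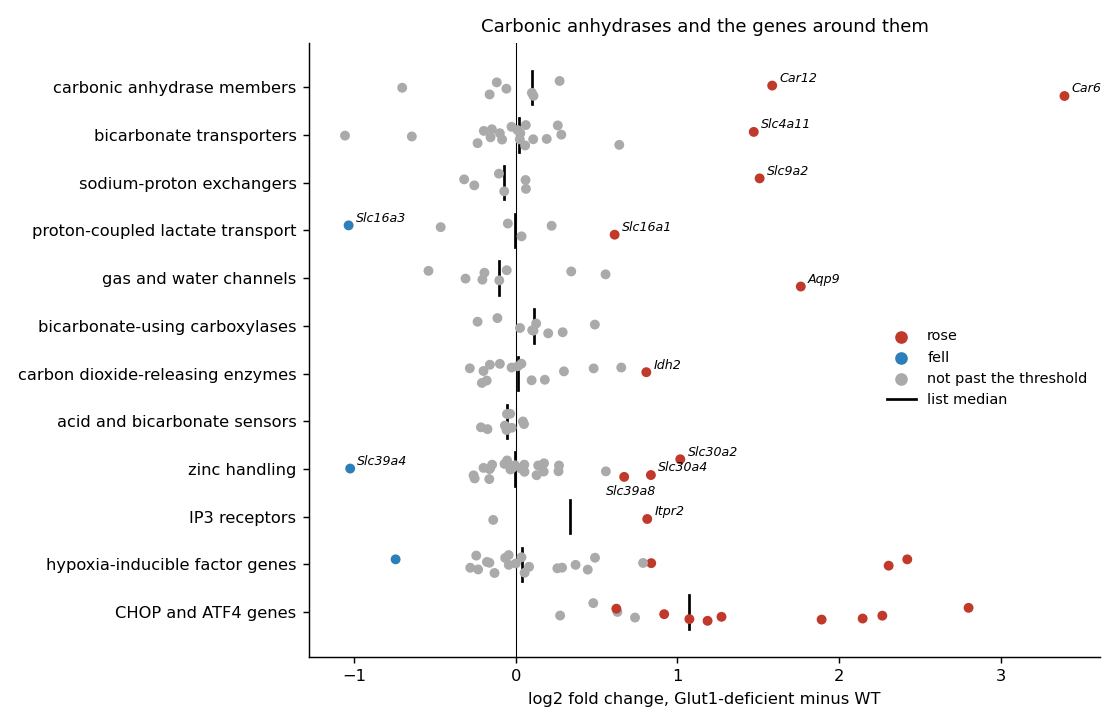
Log2 fold change, Glut1-deficient minus WT, of the carbonic anhydrase genes and of 11 lists of genes that work with them or are known to regulate them; each point is a gene, red points rose, blue points fell and black bars are list medians. Medians of 9 of the 11 lists lie between -0.10 and 0.11, and the CHOP and ATF4 list stands to the right with a median of 1.07.

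Because Car9 and Car12 are known HIF targets and Car6 has a CHOP-dependent form in mouse cells, both sets of genes were read on the same arrays. Of 23 HIF pathway and target genes with a value, 3 rose, 1 fell and 19 did not pass, beside 2.84% of all genes past the threshold. In this list 10 genes had an unadjusted limma p under 0.05, beside 22.2% of all genes. Of these 10 genes 8 were higher on the Glut1-deficient arrays. Over all 22180 genes 4923 had such a limma p, and 2439 of them were higher. The median log2 fold change was 0.04, over regulators and targets together. The peptide hormone gene Adm read 9.15 and 8.70 on the Glut1-deficient arrays, against 6.41 and 6.59 on the WT arrays. Vegfa, the endothelial growth factor, read 9.66 and 9.37 on the Glut1-deficient arrays, against 8.66 and 8.69 on the WT arrays, and rose 1.79-fold. Lox, a collagen crosslinking enzyme, rose 4.95-fold, whereas Egln3, an oxygen-sensing hydroxylase that HIF induces, fell by 0.74 on the log2 scale. The HIF-associated genes included calls in both directions beside a risen Car12 and a Car9 that did not pass.

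Beside 2.84% of all genes past the threshold, 9 of the 13 CHOP and ATF4 genes with a value rose, 0 fell and 4 did not pass. The median log2 fold change of these 13 genes was 1.07. Many of these genes were known to be higher on these arrays when the list was drawn up, so the count is no independent evidence of its direction. Ddit3, which encodes CHOP, read 8.97 and 8.74 on the Glut1-deficient arrays, against 5.96 and 6.15 on the WT arrays, and rose 6.98-fold (limma adjusted p = 0.0126). Trib3, an inhibitory pseudokinase, rose 4.82-fold, Chac1, a glutathione-degrading enzyme, 4.43-fold, and Ppp1r15a, a phosphatase subunit that reverses the block on translation, 3.71-fold. Like Car6, Ddit3 was higher on Glut1-deficient array 1 than on array 2 and lower on WT array 1 than on array 2. Trib3, Chac1 and, from the HIF list, Adm had the same order, while Ppp1r15a and Lox did not on the WT pair. The gap between the Glut1-deficient arrays was 0.54 for Car6, 0.45 for Adm and 0.23 for Ddit3. This order was thus not particular to the CHOP and ATF4 genes. With 4 arrays that split mainly by genotype, no relation between the genes can be tested.

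Markers of other skin cells differed between the same arrays. Of 10 fibroblast markers, 9 had positive log2 fold changes, 0 passed over all genes in limma, and the median was 1.04. An unadjusted limma p under 0.05 was found for 9 of the 10, beside 22.2% of all genes. Of these 9 markers, 8 were higher and Fbln1 was lower on the Glut1-deficient arrays. Over all 22180 genes 4923 had such a limma p, and 2439 of them were higher. The mean log2 level of the list was 6.92 and 6.30 on the Glut1-deficient arrays and 5.59 and 5.50 on the WT arrays. Pdgfra read 8.64 and 7.47 on the Glut1-deficient arrays, against 5.97 and 5.84 on the WT arrays, and Vim 10.40 and 9.44, against 8.38 and 8.07 on the WT arrays. Fbln1 ran the other way, at 7.39 ± 0.253 on the Glut1-deficient arrays and 7.99 ± 0.0093 on the WT arrays (SD, n = 2 each). Of 8 melanocyte markers 4 rose, 0 fell and 4 did not pass, beside 2.84% of all genes past the threshold. The list means were 5.96 and 5.99 on the Glut1-deficient arrays and 5.31 and 5.12 on the WT arrays, with a median log2 fold change of 0.57. Dct rose 3.42-fold, Pmel 3.24-fold, Tyrp1 2.49-fold and Mlana 1.80-fold. The markers that did not pass had log2 fold changes of 0.29 (Mitf), 0.20 (Kit), 0.05 (Tyr) and -0.14 (Sox10).

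Like the fibroblast list, Car6 and Car12 were higher on Glut1-deficient array 1 than on array 2. The gap between those arrays was 0.54 for Car6, 0.43 for Car12 and 0.62 for the list mean. Adm had a gap of 0.45 and Ddit3 one of 0.23 in the same direction, so this order was not particular to the fibroblast list. Relative to the WT mean, the WT arrays stood at -0.20 and 0.20 for Car6, at 0.06 and -0.06 for Car12 and at 0.04 and -0.04 for the list, so Car6 and the list ran in opposite order on the WT pair. Ptprz1 (a gap of 0.10) and the melanocyte list (-0.03) differed less between those arrays. The part of these cell types in the rises of Car6, Car12 and Ptprz1 was not tested. Of 7 keratinocyte markers 0 passed in limma. An unadjusted limma p under 0.05 was found for 4 of the 7, all lower on the Glut1-deficient arrays, beside 22.2% of all genes in either direction. The list means were 7.58 and 7.65 on the Glut1-deficient arrays and 7.78 and 7.82 on the WT arrays.

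Among markers of endothelial cells Kdr rose and the other 4 did not pass, beside 2.84% of all genes past the threshold. Kdr read 7.72 and 7.59 on the Glut1-deficient arrays, against 5.08 and 5.48 on the WT arrays. The median log2 fold change of that list was 0.08, and Pecam1 read 4.91 and 4.93 on the Glut1-deficient arrays and 5.44 and 5.11 on the WT arrays. Among those of adipocytes, in which Car3 is abundant, Fabp4 rose and the other 4 did not pass, with means of 4.15 and 4.00 on the Glut1-deficient arrays and 3.73 and 3.70 on the WT arrays. Of the 25 markers of myeloid, T and Langerhans, erythroid, muscle, sebaceous gland and Schwann cells with a value, 0 passed in limma. An unadjusted limma p under 0.05 was found for 4 of the 25, beside 22.2% of all genes. The medians of these lists lay between -0.06 and 0.17.

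**Figure D4:**
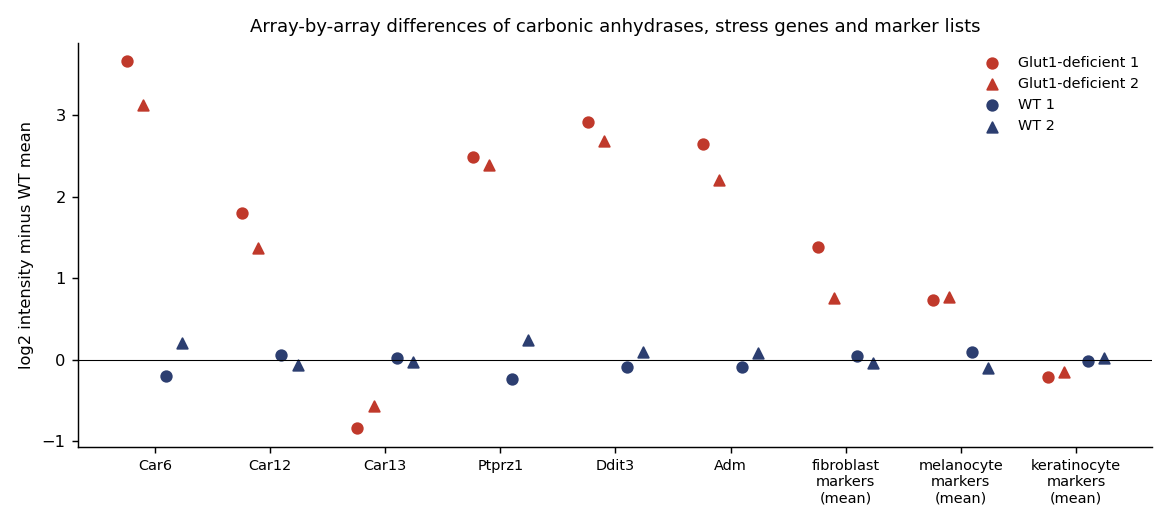
Log2 intensity minus the WT mean on each array (circles are replicate 1 and triangles replicate 2; Glut1-deficient in red, WT in blue) for 3 carbonic anhydrases, Ptprz1, Ddit3, Adm and the means of 3 marker lists. Car6 stands at 3.66 and 3.13 on the Glut1-deficient arrays and at -0.20 and 0.20 on the WT arrays, and the fibroblast mean at 1.38 and 0.76 on the Glut1-deficient arrays and at 0.04 and -0.04 on the WT arrays.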

How the data were processed

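RNA from 4 keratinocyte cultures was hybridised to MoGene 2.0 arrays, 2 per genotype. The deposited values are log2 intensities. Per the submitters' processing notes, the authors used RMA and Affymetrix Expression Console, in versions not named there. No scanner files, detection calls or scan batches were used here. Of 41345 rows, 23521 have 1 gene symbol, 1814 several and 16010 none; the brightest row per gene left 22180 genes. Differences (Glut1-deficient minus WT, two-sided) were fitted in R 4.3.3 by the lmFit and eBayes functions of limma 3.58.1, without a trend of variance on intensity (2 residual and 2.95 prior degrees of freedom), and p-values were adjusted by Benjamini-Hochberg over all genes (threshold 0.05). The fit was run on simulated data with independent errors, which checks the code and not the calls made on these arrays. An exact permutation test of 2 against 2 arrays cannot give a two-sided p under 0.333. The labels call the arrays biological replicates without saying whether pools shared a mouse or a day, and the p-values cover the spread between pools, which may be technical.

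The members, the gene lists, the marker lists and the tests were chosen with earlier results of these data known. Named genes were all members, all other family genes, up to 4 called genes of each pathway list (the 2 with the smallest p where none was called), Slc2a1 and up to 3 of the brightest markers per cell type. Beyond this rule the melanocyte list was named in full, as were Itpr3 and, without a value, Itpr1 and Krt5. Replicate numbers were not used to pair the arrays in the main fit. Deviations from the group mean correlated at r = -0.0251 over genes between same-numbered arrays. This value cannot tell whether such arrays shared a mouse or a day. Alternatives were 2 variance models, 2 normalizations, a filter on dim genes, the mean of a gene's rows, all rows, the replicate number as a block, each array left out and a looser threshold. Promoter sequences are from RefSeq, build GRCm38.p6; windows were found for 6 of the 10 genes. Figures were drawn with matplotlib 3.10.9.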

Additional observations from a re-analysis of the deposited data

Results flagged for a closer look

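Rows that name a carbonic anhydrase but stood outside the comparison were listed where both Glut1-deficient arrays lay above both WT arrays. The row shared by Car14 and Aph1a read 4.52 and 4.52 on the Glut1-deficient arrays and 4.04 and 4.08 on the WT arrays, which is 0.46 higher on the log2 scale (adjusted p over all rows 0.167 in limma), and it cannot be assigned to either gene. The dimmer Car9 row was 0.14 higher on the log2 scale (adjusted p over all rows 0.635 in limma), with a gap of 0.0023 between the nearest arrays of the genotypes. A row shared by Car5a and BC048644 lay the other way, with 3.74 and 3.50 on the Glut1-deficient arrays and 3.82 and 3.76 on the WT arrays, which is a log2 difference of -0.17 (adjusted p over all rows 0.568 in limma). Among all genes tested, the Glut1-deficient arrays lay above the WT arrays for 25.5% and below them for 27.7%.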

How the results depend on the processing

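Of the 9 members, 6 kept their direction under every alternative run, Car6, Car12 and Car13 among them; the exceptions were members that did not pass in any setting. Without 1 array, the log2 fold change ranged from -0.12 to 0.34 for Car2, from -0.23 to 0.11 for Car3 and from -0.33 to 0.0066 for Car5b. Car3 was at 0.028 with the mean of its rows. Outside the members, Car1 ranged from -0.013 to 0.28 without 1 array. The 22 named genes that were called kept their direction throughout. Much of this was fixed by construction. The variance models, the filter, all rows, the replicate block and the looser threshold leave the log2 fold change of a gene unchanged. Where the groups do not overlap, as for Car6, Car12, Car13 and the called genes, leaving out 1 array cannot reverse it. Kept direction is therefore no independent support for these genes. The count of members past the threshold was 2 or 3, with Car13 the added gene, except that it was 0 with all rows tested (limma; 3 at unadjusted p under 0.05), 0 with the replicate block (limma; 4 at unadjusted p under 0.05) and from 0 to 0 without 1 array (limma; 3 at unadjusted p under 0.05 each time), where 1 residual degree of freedom remains. With the replicate block Car6 had a limma adjusted p of 0.0531 and Car12 one of 0.0534. Car6 entered the filter on dim genes through its Glut1-deficient arrays (mean 7.58). Its WT mean of 4.18 lay below the median tested gene (4.76), so its call under that filter is no support for its rise. A looser threshold cannot lose a call. Over all genes the count was 630 as reported, 2671 with an intensity trend, 2729 with a robust trend, 2327 among genes above the median level, 1855 at an adjusted p under 0.1, 37 with the replicate block, 0 with all rows (limma; 6694 at unadjusted p under 0.05) and from 0 to 0 without 1 array (limma; 2948 to 4627 at unadjusted p under 0.05). Of the 140 pathway genes 24 passed as reported, 41 with either trend, 38 among genes above the median level, 3 with the replicate block, 0 with all rows (limma; 51 at unadjusted p under 0.05) and from 0 to 0 without 1 array (limma; 37 to 49 at unadjusted p under 0.05). The causes were not tested beyond the fewer residual degrees of freedom and the larger number of tests that these settings bring by construction. Dim rows (Car2, Car3, Car4, Car8, and Car6, Ptprz1, Slc9a2 and Aqp9 in WT) may lie near background, which limits how small or large a change they can show.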
